A study of Nematostella vectensis with 10 samples.

Results

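A set of 178 genes whose RNA was partly lost after knockdown of *Nvznf845* in gastrulae of the sea anemone *Nematostella vectensis* is described here, out of 24520 genes measured. The genes were chosen by their values in the same libraries that are described. Each had a mean of at least 50 normalised counts in the controls, a value below every control in every knockdown library, and a mean log2 ratio of knockdown to control between −2 and −0.585. On that scale −2 leaves 25% of the control value and −0.585 is a fall of 1.5-fold. Published cnidocyte genes to which the study's list gives a gene number were left out. Listed genes without a number could not be recognised in the data. Because the rule used the contrast between knockdown and control, the size and direction of these falls are a description and were not tested.

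*Nvznf845* encodes a zinc finger transcription factor that is expressed as cells commit to the cnidocyte fate and acts upstream of the transcription factor gene *NvpaxA*. Cnidocytes are the stinging cells of cnidarians. Each builds a single explosive capsule, such as a nematocyst, from minicollagens and other secreted proteins, and in *Nematostella* they arise as scattered cells of the ectoderm from the gastrula onward. The genes of the set carry only the gene numbers of the Nvec200 models (NV2 followed by a number), and the reference table used here held none of these numbers. No names, functions or sequences are therefore given for them.

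RNA came from whole wildtype embryos raised at 24 °C and collected at 28 hours post fertilization, with about 1000 injected embryos per replicate. There were 5 knockdown libraries, from embryos injected with an shRNA against *Nvznf845*, and 5 control libraries, from embryos injected with a control shRNA that the labels call a scramble RNA. All embryos were thus injected, and a single shRNA was used for the knockdown. Knockdown and control libraries share replicate numbers 1 to 5 and, number by number, 4 batches: LA40 for pair 1, LA42 for pair 2, LA45 for pair 3, and LA48 for pairs 4 and 5. Values below are listed in the order of pairs 1 to 5.

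The libraries held 18891111 to 49293261 estimated counts. In pair 3 the 10 most abundant genes took 67.4% of the counts of the knockdown and 56.0% of those of the control, against 6.24 to 33.3% in the other pairs. Counts were divided by median-of-ratios size factors, which ranged from 0.496 to 1.51. *Nvznf845* itself (NV2.17877) had 1357, 1456, 1602, 1581 and 1577 normalised counts in the controls and 257, 329, 179, 343 and 292 in the knockdown. The groups were far apart, and 18.5% of the control level remained.

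The set lay at the shallow end of a broad range of falls. Of 15224 genes with a control mean of at least 50, 798 (5.24%) had every knockdown value below every control value, and 526 of these had a mean log2 ratio of −2 or less. A further 91 lay above −0.585, and 181 lay between the limits. Leaving out the 3 published genes among these gave the 178. Per unit of log2 ratio, 128 genes lay between −5 and −4, 91 between −3 and −2, 86.0 between −2 and −1.5, 106 between −1.5 and −1, and 198 between −1 and −0.585. The partly falling genes thus joined the deeply falling ones without an empty interval at −2, and their number per unit was highest next to the 1.5-fold limit. The choice of members depended on the scaling: with library totals alone the rule found 33 genes, 27 of them in the set, and with summed TPM 114, of which 47 were in the set.

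**Figure D1:**
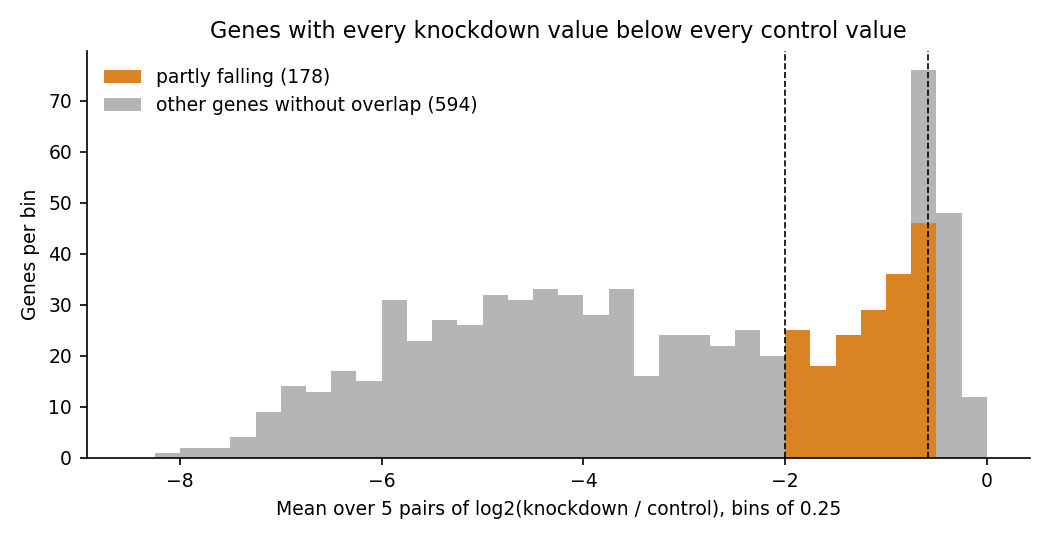
Mean log2 ratio of knockdown to control over 5 pairs (horizontal axis, bins of 0.25) against the number of genes per bin. The 772 genes without overlap between groups are shown, without the published cnidocyte genes that have a gene number. The 178 partly falling genes (orange) lie between the dashed limits of −2 and −0.585, and 594 other genes (grey) lie on both sides of them.

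Summed over the set, the controls held 85270.5, 92932, 72441, 79246 and 84528 normalised counts and the knockdowns 39236, 43191, 40062, 39767 and 40067. The lowest control was that of pair 3, and the knockdown libraries lay close together. The mean was 40464 ± 1561 (SD, n = 5) in the knockdown and 82884 ± 7610 (SD, n = 5) in the control, so 48.8% remained. By the same sum, 5.61% remained of the 504 strongly falling genes, defined as those without overlap at a mean log2 ratio of −2 or less outside the published list. In RNA from whole embryos, fewer cells of a type and less RNA per cell cannot be told apart.

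Within the set the mean log2 ratio ran from −1.997 to −0.59 with a median of −1.05 and quartiles of −1.48 and −0.74. The knockdown mean was 24.6 to 67.7% of the control mean, and 96 of the 178 genes kept 50% or less. No gene of the set was at 0 in any library. The lowest single value was 6.05 normalised counts, in the knockdown of pair 3. With the size factor of 0.496 in that library, it stands for fewer reads than 6.05.

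The members with the highest level per length were NV2.363, NV2.16606 and NV2.18912, followed by NV2.3783. In TPM (a count scaled by transcript length and then to the same total in every library), their control means were 175 ± 58.9, 172 ± 58.2, 132 ± 41.8 and 132 ± 41.4 (SD, n = 5). These 4 levels differed by less than the SD of the highest and were the only ones in the set at 100 TPM or more. Part of that SD is shared by the set. Its summed TPM was 1365 in the control of pair 3, against 2384 to 3197 in the other controls. The SD therefore does not tell whether the 4 levels differ.

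NV2.363 had 3309.8, 3568, 1939, 2253 and 2284 normalised counts in the controls and 1199, 1124, 802, 988 and 731 in the knockdown. Pairs 1 and 2 were highest in both groups, and the lowest control was 0.69 log2 units above the highest knockdown. Its mean log2 ratio was −1.45 ± 0.21 (SD over 5 pairs). NV2.18912 had 1806, 1445, 1012, 1351 and 1484 in the controls and 529.6, 480.4, 536, 497 and 365 in the knockdown, a log2 ratio of −1.55 ± 0.41 with the fall smallest in pair 3. NV2.16606, at nearly the same level as NV2.363, lost much less of its RNA. Its controls held 3066, 3171, 1699.7, 2378 and 2498 normalised counts and its knockdowns 1668, 1525, 1607, 1671 and 1431. The control of pair 3 almost touched the knockdown values, and the log2 ratio was −0.67 ± 0.38. The most abundant members therefore spanned much of the range of falls in the set.

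**Figure D2:**
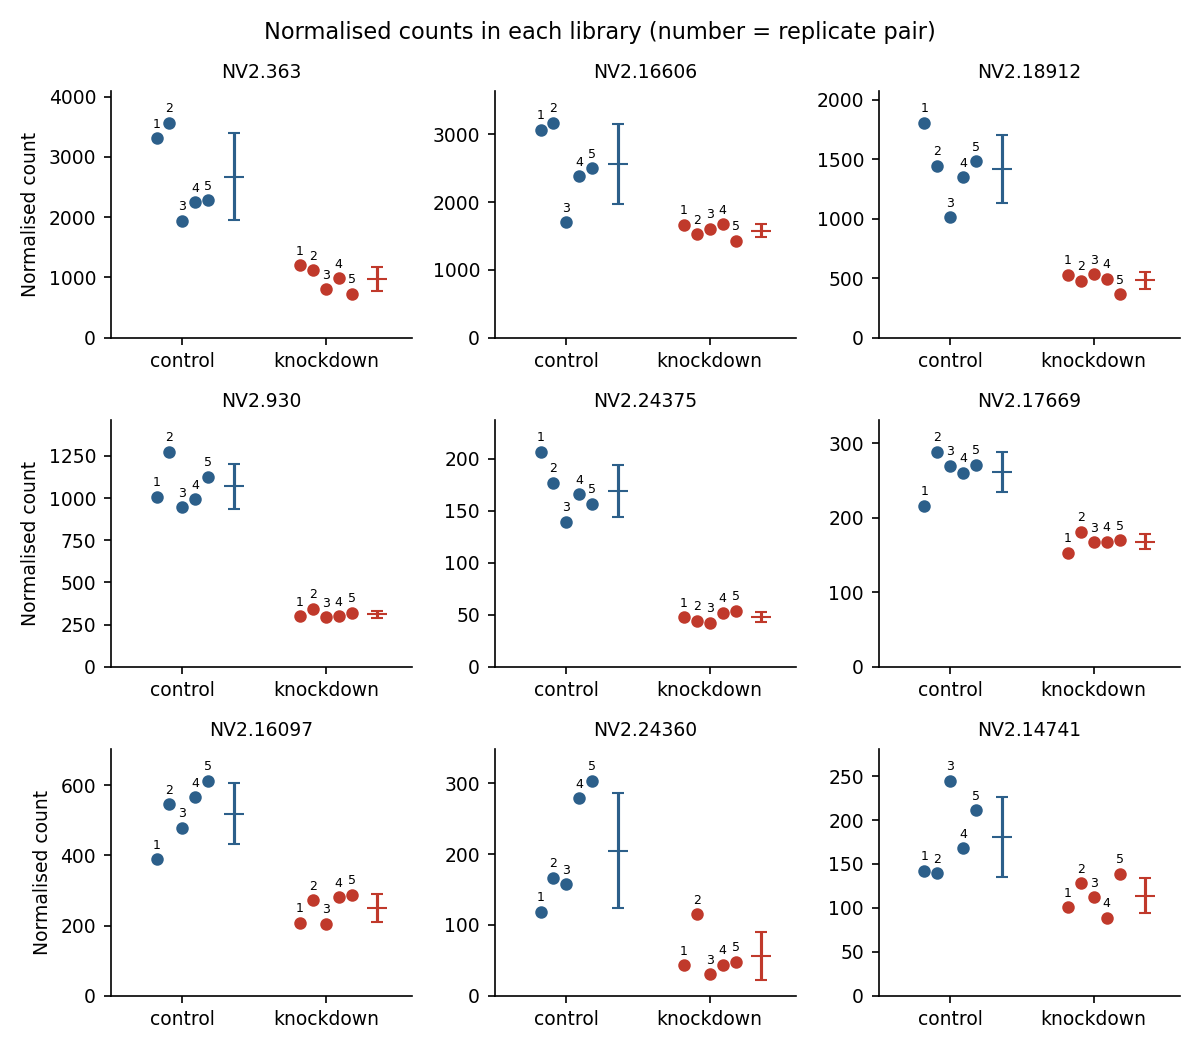
Normalised counts of 9 genes of the set in each library (points, numbered by replicate pair, control blue and knockdown red), with the mean and SD of 5 libraries beside them. NV2.930 shows the widest gap between groups and NV2.14741 the narrowest, and the control of pair 3 is the lowest for NV2.363, NV2.16606 and NV2.18912.

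Members differed in how evenly the fall was shared by the pairs. The SD of the log2 ratio over the 5 pairs had a median of 0.31. It was under 0.2 for 43 genes and over 0.5 for 36. NV2.930 was the steadiest of the deep falls. It had 1007, 1274, 947, 992 and 1127 normalised counts in the controls and 299.7, 344, 294, 298 and 321 in the knockdown. The knockdown kept 29.1% in a narrow band, with a log2 ratio of −1.77 ± 0.08 and the widest gap between groups of any member, 1.46 log2 units. NV2.17669 held the same narrow spread at a far shallower fall. Its controls had 216, 289, 270.1, 260.4 and 271 and its knockdowns 153, 181, 167, 168 and 170.1, a log2 ratio of −0.63 ± 0.08. NV2.8625 was similar, at −0.83 ± 0.08. In these genes, chosen for their small SD, shallow and deep falls were equally even across pairs. At a shallow fall the absence of overlap leaves little room for uneven values, so nothing more is read from this.

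The least even members were NV2.10696, NV2.24360 and NV2.25360, with SDs of 1.08, 0.92 and 0.91. NV2.10696 had 65.3, 30.8, 74.3, 67.0 and 60.8 normalised counts in the controls and 11.8, 26.0, 8.06, 16.6 and 19.9 in the knockdown. Its controls were even apart from pair 2, where the control was lowest and the knockdown highest. NV2.25360 had 37.4, 31.9, 68.7, 63.6 and 58.0 in the controls and 17.8, 12.4, 6.05, 13.7 and 13.9 in the knockdown, so that the fall was smallest in pair 1 and largest in pair 3. The control means of NV2.10696, NV2.24360 and NV2.25360 were 59.7, 205 and 51.9 normalised counts. In the knockdown of pair 3, with a size factor of 0.496, the values of 8.06 and 6.05 stand for fewer reads than they show. Whether low counts account for the spread was not tested. The 10 members with the largest SD all had control levels of at most 5.86 TPM, and 4 had their largest and 3 their smallest fall in pair 3.

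The middle of the set was held by NV2.16097, NV2.3818 and NV2.18831. NV2.16097 had 389, 547, 479, 566 and 613 normalised counts in the controls and 209, 271, 206, 281 and 288 in the knockdown, with pairs 4 and 5 highest in both groups and a log2 ratio of −1.05 ± 0.12. NV2.3818 and NV2.18831 had ratios of −1.06 ± 0.30 and −1.04 ± 0.35, and in both the control of pair 3 was the lowest by a wide margin (168 and 202 against 249 to 384 in the other controls).

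In every pair the set lay between all genes and the strongly falling ones, an order nearly fixed by the limits on the mean ratio over these pairs. The fall of the set was shallowest in pair 3. The median log2 ratio over the set was −1.16, −1.11, −0.87, −0.93 and −1.06 in pairs 1 to 5. Medians over the 504 strongly falling genes were −4.25, −4.40, −4.17, −4.43 and −4.57, and those over all 15224 genes lay between −0.04 and 0.10. *Nvznf845* had its largest fall in pair 3, at −3.16, against −2.14 to −2.43 in the others. Pair 3 held the smallest fall for 83 members (46.6%), and for 46.4% of the strongly falling genes. Of the 178 genes, 100 had a ratio of −0.585 or less in all 5 pairs, and 44 reached −2 or less in at least 1 pair. The ratios of pairs 4 and 5, from 1 batch, differed by a median of 0.23 over the set, those of pairs 1 and 5 by 0.22, and those of pairs 2 and 3 by 0.55.

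**Figure D3:**
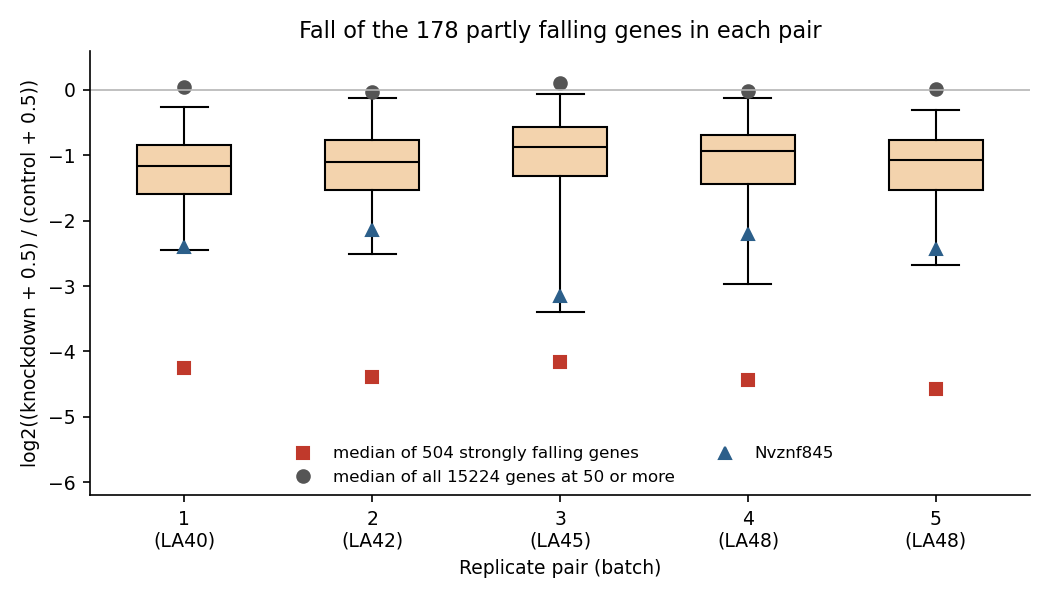
Log2 ratio of knockdown to control in each replicate pair, with its batch, for the 178 partly falling genes (boxes show quartiles and median, whiskers the lowest and highest gene). The medians of the set lie between −1.16 and −0.87, above *Nvznf845* (triangles) and the medians of the strongly falling genes (squares, −4.57 to −4.17) and below those of all genes with a control mean of at least 50 (circles).

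The control of pair 3 was the one most often closest to the knockdown values. It was the lowest control for 101 of the 178 members (56.7%) and for 42.4% of the 15224 genes. The control of pair 2 was the highest for 75 (42.1%, against 26.9%). Whether the abundant transcripts of pair 3 account for this was not tested. Without pair 3 the same rule found 260 genes, 162 of them in the set, with a median ratio of −1.09. With fewer libraries it is easier for every knockdown value to lie below every control value. The 260 is therefore not comparable with 178, and nothing is read from it about pair 3.

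The distance between the lowest control and the highest knockdown had a median of 0.36 log2 units. It was at least 1 for 17 members and under 0.1 for 29, and in 15 of those 29 the lowest control was that of pair 3. NV2.24375 and NV2.18792 followed NV2.930 with gaps of 1.37 and 1.33. NV2.24375 had 206, 177, 139, 166 and 157 normalised counts in the controls and 47.4, 44.2, 42.3, 51.8 and 53.8 in the knockdown. At the other end, NV2.14741 had 142, 139, 245, 168 and 211 in the controls and 101, 128, 112, 88.9 and 139 in the knockdown. Its highest knockdown (138.9, pair 5) and lowest control (139.1, pair 2) were nearly equal. NV2.11395 and NV2.4010 also had gaps under 0.01, and in both the lowest control was that of pair 3 (104 and 114 normalised counts).

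Genes on either side of each limit had similar values. Just inside the limit of −2 lay NV2.25360 (−1.997), NV2.12656 (−1.98) and NV2.24360 (−1.93), and just outside it NV2.13439 (−2.004) and NV2.949 (−2.01). Inside the 1.5-fold limit were NV2.18638 (−0.5853), NV2.13071 (−0.5855) and NV2.24424 (−0.59), and NV2.1023 (−0.5834) and NV2.15488 (−0.5823) were outside. At the count limit, NV2.12907 (50.3), NV2.25360 (51.9) and NV2.8818 (52.5) were in, and NV2.23129 (49.6) and NV2.22722 (47.9) were out. The limits on the ratio therefore divide neighbours whose ratios differ by less than their SD over pairs.

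The partly falling genes were expressed at low to moderate levels. Their median control level was 7.37 TPM, against 10.2 for the strongly falling genes and 13.2 for all genes with a control mean of at least 50. In the set 66 genes (37.1%) reached 10 TPM, as did 51.0% of the strongly falling genes and 58.3% of all. The longest transcript had a median length of 2532 bases, against 2484.5 (strongly falling) and 2670 (all), and lengths ran from 726 bases (NV2.3325) to 17074 (NV2.2644). The coefficient of variation among the 5 controls had a median of 17.0%, against 22.2 and 18.8%. Every control had to lie above every knockdown value, which at a shallow fall leaves little room for uneven controls. Nothing is therefore read from this difference. Split by control level into 60, 58 and 60 genes, the set had median ratios of −1.12, −1.09 and −1.04 from low to high, while the median SD over pairs was 0.38, 0.30 and 0.25. Since the rule bounds the ratio of every member, these medians say nothing of how the fall depends on level.

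**Figure D4:**
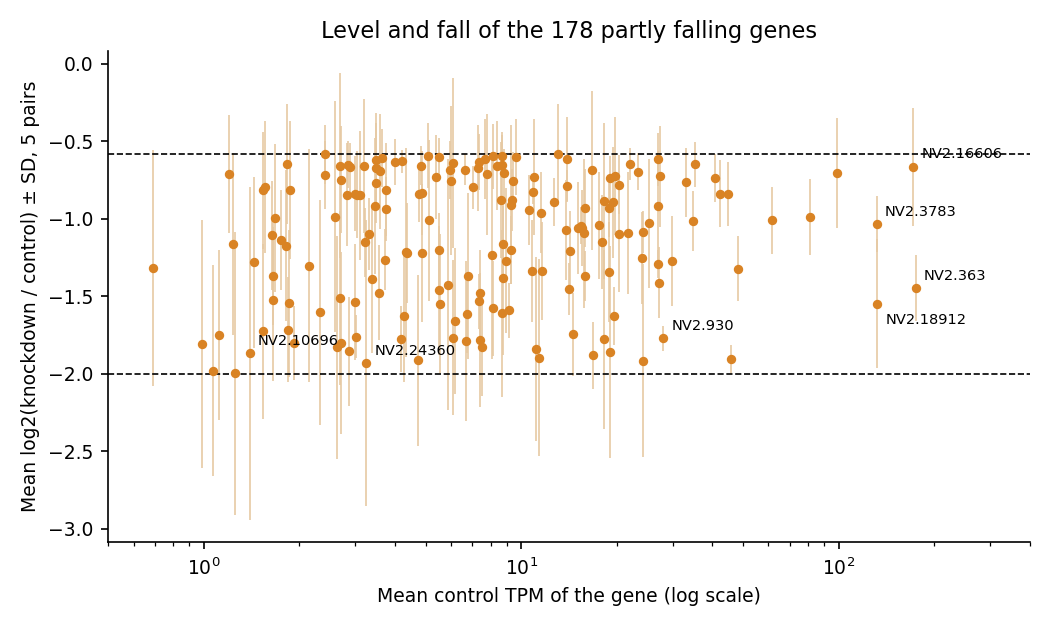
Mean control level of each of the 178 genes in TPM (log scale) against its mean log2 ratio, with the SD over 5 pairs as bars and the limits of the rule dashed. The 4 genes at 100 TPM or more run from −1.55 to −0.67, and the longest bars belong to genes of low level such as NV2.10696.

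Gene totals can hide transcripts that behave differently. Of the 178 genes, 124 (69.7%) had a single transcript model, as did 71.1% of all genes with a control mean of at least 50 and 79.4% of the strongly falling ones. In these 124 the partial fall, with a median log2 ratio of −1.07, belongs to 1 transcript model. A further 29 had several models but fewer than 2 with a control mean of at least 50. The other 25 had at least 2 such transcripts, and in 10 of them (40%) transcripts differed by at least 1 in mean log2 ratio, against 27.0% of 2469 such genes in all. These were taken by the mean alone, whatever the spread over pairs. They include NV2.10217, whose transcript 4 had 290, 0, 0, 0 and 181 normalised counts in the controls and a log2 ratio of 3.09 ± 7.76 (SD over 5 pairs). In 7 of the 25, at least 1 transcript lay below every control at −2 or less while another overlapped the controls. That was so for 1.70% of the 2469, but a gene that loses part of its transcripts falls partly as a total, so the rule itself draws such genes in. This count was chosen after the data were seen.

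The transcripts furthest apart were those of NV2.12871, with 4 models. Its transcript 4 had 169.9, 242, 58.0, 159 and 187 normalised counts in the controls and 0, 0, 18.2, 0 and 3.40 in the knockdown. Transcript 2 of the same gene had 305, 282, 281, 259 and 242 in the controls and 222, 180.2, 275, 268 and 229 in the knockdown. Transcript 4 was at 0 or near it in 4 knockdown libraries and highest in that of pair 3, where the control was lowest, and its log2 ratio of −6.58 ± 3.05 (SD over 5 pairs) depends on the pseudocount where the knockdown is at 0. Transcript 2 overlapped the controls (−0.23 ± 0.30). Transcript 4 made up 32.6% of the gene's counts in the controls and 1.59% in the knockdown, and held 69.5% of the fall of the gene.

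NV2.23986 repeated the pattern with 2 models. Transcript 2 had 63.2, 75.7, 106, 91.8 and 112 normalised counts in the controls and 0, 0, 0, 2.90 and 10.8 in the knockdown. Transcript 1 had 77.5, 84.3, 156, 86.9 and 64.5 in the controls and 45.0, 68.1, 68.5, 55.7 and 43.6 in the knockdown, so it was lower in every pair but overlapped between groups (−0.69 ± 0.32). The first transcript named was at 0 in 3 knockdown libraries and highest in that of pair 5, with a ratio of −6.01 ± 1.89 that likewise depends on the pseudocount. Its share of the gene went from 48.9 to 4.66%.

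In NV2.9190 the fall was confined to 1 of 2 transcripts. Transcript 2 had 245, 302, 250.1, 224 and 281 normalised counts in the controls and 32.6, 35.2, 35.3, 13.2 and 13.3 in the knockdown. Transcript 1 had 149, 107, 107, 143 and 93.6 in the controls and 118, 127, 166, 136 and 152 in the knockdown, so that the values overlapped and the knockdown mean was 117% of the control mean. All of the fall of this gene thus lay in transcript 2, which went from 68.5 to 15.6% of its counts. In NV2.9203, transcript 1 held 92.4% of the fall, with 715, 774, 465, 765 and 793 in the controls and 110.2, 96.2, 116, 67.5 and 59.5 in the knockdown. In NV2.13532, transcript 1 held 85.6% of it, with 375, 409.9, 263, 280.5 and 295 in the controls and 21.3, 27.9, 36.1, 19.0 and 24.4 in the knockdown, and the other 3 models together kept 89.9% of their control counts.

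The split was less complete in the other members of this group. NV2.3783 has 16 models, and its gene totals were 5812, 6307, 4452, 5230.5 and 5586 in the controls and 2808, 2925, 2703, 2333 and 2548 in the knockdown. Transcript 10 had the deepest separated fall, from 1875, 1913, 1155, 1367 and 1694 in the controls to 334, 396, 314, 308 and 306 in the knockdown, and held 45.1% of the gene's fall. Transcript 2 was level, at 258, 303, 364, 404 and 377 in the controls and 396, 302, 304, 331 and 413 in the knockdown. In NV2.18394, transcript 3 was the only one without overlap at −2 or less, and it held only 23.4% of the fall. The remaining 4 models together still had a log2 ratio of −1.18 ± 0.19. Among them, transcripts 2 (−1.62) and 5 (−1.46) also lay below every control. Salmon divides reads that fit several transcripts, so values of single transcripts are less certain than gene totals.

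Among the 15 multi-transcript members whose transcripts stayed less than 1 apart, the median log2 ratio of the gene was −0.84. NV2.363 belonged to these. Its transcript 1 had a log2 ratio of −1.96 and its transcript 2 of −1.25, both without overlap between groups.

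**Figure D5:**
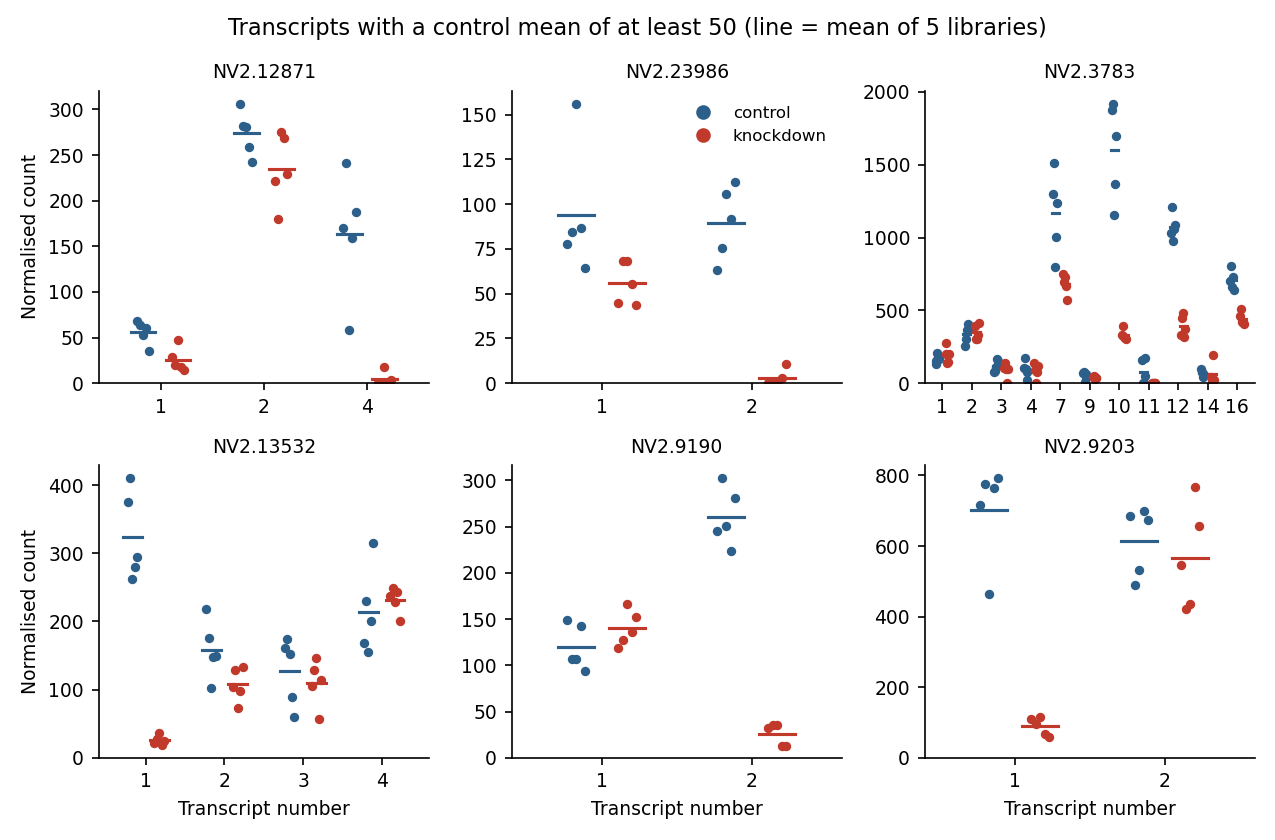
Normalised counts of single transcripts (horizontal axis, transcript number) in 6 genes of the set, for transcripts with a control mean of at least 50. Points are libraries (control blue, knockdown red) and lines are means of 5. In each gene at least 1 transcript is far below its controls, such as transcript 4 of NV2.12871 and transcript 2 of NV2.23986, and at least 1 other overlaps them.

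Some members stood beside other genes that were lower. Gene numbers follow the order of the models and are not coordinates. A gene number next to a member's belonged to a strongly falling gene for 11 of the 178 (6.18%), against 3.76% of all genes with a control mean of at least 50 and 40.3% of the strongly falling genes. It belonged to another member for 10 (5.62%), against 1.43% of all. Either was so for 21 (11.8%, against 5.14%). As neighbours in these shares, the strongly falling genes include the 22 published cnidocyte genes without overlap at −2 or less. Next to a published cnidocyte gene stood 0, against 0.25% of all, a share so low that nothing is read from the 0. These shares, and whether neighbouring models share reads, were not tested.

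NV2.930 and NV2.932 flank a gene with a much deeper fall. NV2.931, between them, had 758, 1009.6, 521, 656 and 704 normalised counts in the controls and 45.0, 51.3, 52.4, 45.9 and 31.9 in the knockdown, so 6.21% remained. NV2.932 had 981, 1398, 969, 1115 and 1243 in the controls and 270.1, 387, 249.9, 315 and 299.9 in the knockdown, with 26.7% remaining. In both members, as in NV2.931, the control of pair 2 was the highest.

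NV2.24360 lay within a run of strongly falling genes. NV2.24358, NV2.24359, NV2.24361 and NV2.24362 had mean log2 ratios of −5.95, −5.77, −5.28 and −5.30. NV2.24360 itself had 119, 166, 157, 279 and 304 normalised counts in the controls and 42.6, 115, 30.2, 44.0 and 47.8 in the knockdown, a ratio of −1.93 ± 0.92. The knockdown of pair 2 stood far above the other knockdowns, and the highest controls were those of pairs 4 and 5.

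The 5 runs of consecutive members were all of 2 genes. NV2.22451 and NV2.22452 fell to nearly the same share, 28.4 and 28.9% of control. NV2.22451 had 359, 389, 253, 302 and 337 in the controls and 65.1, 102, 134, 93.7 and 71.8 in the knockdown. NV2.22452 had 122, 129.6, 73.4, 99.7 and 108 in the controls and 24.9, 36.2, 38.3, 27.4 and 27.2 in the knockdown. Both had their lowest control and highest knockdown in pair 3. NV2.8659 and NV2.8660 kept 43.5 and 29.2%, with the highest control in pair 3 for both (in NV2.8660, 1603, 2018, 3289, 2367 and 2344 in the controls and 569, 951, 592, 487 and 794 in the knockdown). NV2.18638 and NV2.18639 differed more, at 66.4 and 43.1%, as did NV2.16382 and NV2.16383, at 50.4 and 34.7%. The last run, NV2.6031 and NV2.6032, had log2 ratios of −1.52 and −0.85.

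A fit across all genes gave the background for the set. With edgeR's quasi-likelihood test, 803 of 19001 genes (4.23%) were called lower, which asked for a 1.5-fold fall and an adjusted p no higher than 0.05, and 229 were called higher. All 178 members were tested and 163 of them were called lower. Since the rule used the same contrast, nothing is read from this count. The fitted log2 fold changes of members ran from −1.99 to −0.55 with a median of −1.04, beside 0.01 over all genes tested.

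Of the 15 members not called, 3 missed only the fold limit and 12 had an adjusted p above 0.05. The largest adjusted p (edgeR, Benjamini-Hochberg) was 0.266, for NV2.7805, with 58.8, 55.9, 49.9, 47.3 and 55.0 normalised counts in the controls and 17.8, 38.9, 34.3, 40.1 and 44.5 in the knockdown. Its knockdown values were uneven, with that of pair 1 lowest. NV2.20734, NV2.9876, NV2.22104 and NV2.24908 followed with adjusted p of 0.228, 0.122, 0.12 and 0.12. All 5 had control means of 53.4 to 88.6 normalised counts, in the lower part of the set. With the replicate block in the fit, NV2.22104 (adjusted p 0.0323) and NV2.24908 (0.0214) were called, and NV2.16606 (0.0533), NV2.24424 (0.0609) and NV2.8818 (0.0895) were not. Conversely, 215 genes were called lower with a fold change above −2, and 52 of them were not in the set: 34 had a control mean under 50, 13 overlapped between groups, 3 were published genes and 2 lay beyond the limits on the ratio.

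Few of the published cnidocyte genes fell by a like amount. Of 33 tested besides *Nvznf845*, 24 were called lower and 0 higher, and 21 of the 24 had a fold change of −2 or less. The study listed these genes for cnidocytes and marked them from these samples, so their direction is not independent evidence. Those that met every other part of the rule were *Nvsox2*, *NvfoxL2* and *NvCALM3-like*, and they were left out by it. *Nvsox2* (NV2.18482), a transcription factor gene of developing cnidocytes, had 1061, 1171, 764, 813 and 899 normalised counts in the controls and 444, 464, 345, 376 and 375 in the knockdown. It kept 42.6% with a log2 ratio of −1.22 ± 0.09, nearly the same in every pair. *NvfoxL2* (NV2.14459), a forkhead transcription factor gene, had 135, 187, 131, 115 and 135 in the controls and 49.8, 46.8, 68.5, 41.0 and 41.2 in the knockdown, with a ratio of −1.51 ± 0.39. *NvCALM3-like* (NV2.20419), named for calmodulin, had 178, 204, 123, 138 and 173 in the controls and 63.6, 75.5, 66.2, 80.1 and 66.6 in the knockdown, with a ratio of −1.19 ± 0.33. None of these overlapped between groups, and all lay within the range of the 178 genes. No list of markers of other cell types with these gene numbers was at hand, so which cells express the set was not tested.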

How the data were processed

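Polyadenylated RNA of 10 libraries of whole gastrulae was sequenced by the authors' provider (paired-end reads of 150 bases). On Galaxy, the authors quantified transcripts of the Nvec200 models with Salmon, and they named DESeq2 for their own comparison. The version of either tool is not given in the sources used here. Estimated counts and TPM per transcript were the deposited values. Because Salmon shares out reads that match more than 1 transcript, near-identical copies are less certain. Depth was 18891111 to 49293261 estimated counts per library. Intervals of counting error were not computed, since by the median over genes the spread between libraries was larger. The median chi-square per gene between libraries of a group was at least 1.451, and no library was a duplicate. Such a median does not cover single genes with few counts. Nothing in the labels says that the replicates came from separate spawnings beyond the batch names.

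For each of 24520 genes the estimated counts of its transcripts (35819 in all) were added and divided by median-of-ratios size factors from the 20303 genes above 0 in all libraries (Python 3.11.15, numpy 2.4.6, pandas 2.3.3). Log2 ratios were taken per replicate pair with a pseudocount of 0.5, which understates the fall of low genes. Members followed the rule given in the opening. A condition that removed genes at −2 or less in all 5 pairs removed 0. For the test across genes, gene sums were rounded and fitted with edgeR 4.0.16 (R 4.3.3) by glmQLFit with robust estimation and glmQLFTest, using TMM factors, Benjamini-Hochberg adjustment and filterByExpr at a minimum count of 10, with condition alone as the term, after the steps were tested on simulated data. The members, lists and tests were chosen with earlier results of these data known.

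The study describes its replicates as paired, and libraries with the same number carry the same batch name, so the numbers were taken as pairs. Within pairs 1 to 5, departures from the group mean had correlations of 0.474, −0.0386, 0.191, 0.164 and 0.609.

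Named genes were those of highest control TPM, nearest each limit, at the middle of the set, with the smallest and largest spread over pairs, with the smallest and largest gap, with transcripts furthest apart, with consecutive numbers, and with the largest adjusted p. The other split transcripts, the neighbours of NV2.930 and NV2.24360, and NV2.6031, NV2.6032, NV2.3325 and NV2.2644 were added after their values were seen. Gene names came from the study's list of 42 published cnidocyte genes, 38 of which carry a gene number. The rest of the list could not be recognised in the data or left out of the set. The values of 1 gene are not reported here. Alternatives were other scalings, pseudocounts, count limits, tests, blocks and the leaving out of libraries.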

Additional observations from a re-analysis of the deposited data

Results flagged for a closer look

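In the groups of 5 libraries of the 48 genes named by the rule, the highest or lowest library stood far from the other 4 in 6 of 96 groups. Chance alone flags about 1 in 20 groups. Among the 178 genes, NV2.24360 had 114.9 normalised counts in the knockdown of pair 2, against 30.2 to 47.8 in the other knockdowns. NV2.20734 had 78.2 in the control of pair 3, against 54.4 to 58.3 in the other controls, and NV2.9876 had 126.7 in the control of pair 5, against 66.8 to 81.7. NV2.23129, just under the count limit of the set, was high in both libraries of pair 3, with 34.3 in the knockdown (others 23.9 to 26.4) and 78.3 in the control (others 35.3 to 45.9). The published gene *NvfoxL2* (NV2.14459) had 187 in the control of pair 2, against 115.2 to 135.2 in the other controls.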

How the results depend on the processing

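The set depended most on the scaling and on the libraries used. Library totals alone gave 33 members and summed TPM 114, pairs 4 and 5 alone gave 506 (156 of them in the set), and TMM factors, upper-quartile factors and a pseudocount of 1 gave 170, 164 and 177. Leaving out 1 pair at a time gave 198 to 260 members, with the highest number without pair 3, and a median log2 ratio of −1.09 to −1.001. The absence of overlap is easier to meet with fewer libraries. Numbers of members found with fewer pairs are therefore not comparable with 178. The medians under other scalings and the other pseudocount were −1.15 to −0.96. Over all 15224 genes no scaling moved the median ratio by more than 0.1. Of the 178 genes, edgeR called 44 with library totals alone (660 of all genes), limma on log2(TPM + 1) 54 (656), DESeq2 171 (960), limma-voom 160 (801), and edgeR without 1 library 141 to 161 (747 to 859). With the replicate block 162 members and 820 genes in all were called lower, against 163 and 803 without the block. Members with transcripts at least 1 apart numbered 18 when transcripts of at least 20 normalised counts were taken (48.6% of members with 2 such transcripts, 34.3% of all such genes). Those with a split then numbered 12. For the split at this count limit the share over all genes was not computed, so nothing is read from the 12. Members beside another falling gene numbered 32 within 2 gene numbers (18.0%, against 9.56% of all genes with a control mean of at least 50). By the next number without pair 3 they numbered 30, out of the 260 genes found there. No share over all genes was computed for that setting. For the 48 named genes, 481 of the fitted values with the block or without 1 library kept their direction and call, 30 lost the call, 17 gained it and 0 turned. The settings without pair 3 and all values for split transcripts were chosen after seeing the data. The causes were not tested. Genes with few counts, transcripts that share reads, and pair 3 limit what can be said of single members, and no markers of other cell types with these gene numbers were at hand.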
